A study of Mus musculus with 4 samples.

Results

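Oxidative phosphorylation is described here complex by complex in cultured mouse microglia given lysophosphatidylserine (LysoPS). The genes were chosen by name alone: the families Nduf, Sdha to Sdhd, Uqcr, Cox4 to Cox8 and Atp5, the mitochondrially encoded mt-Nd, mt-Co, mt-Cytb and mt-Atp genes, Cyc1 and Cycs. Of 51826 gene models in the table, 115 had such a name. Names ending in -ps (7 models) and 3 models with fewer than 40 counts over all libraries (Cox7b2 and Cox8c with 0, Cox8b with 6) were left out. This left 105 genes, 92 nuclear and 13 of the mitochondrial genome, and all 105 passed the filter on low counts. Complex I had 51 of them, complex II 4, complex III 10, complex IV 20 and complex V 19, and Cycs is the mobile cytochrome c. The lowest counts just inside the limit of 40 were those of Cox4i2 (78 over the 4 libraries), Cox6a2 (110) and Cox7a1 (242).

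The 4 libraries were made from poly-T-selected RNA of wild-type primary microglia of the C57BL/6 strain. Brains of newborn mice were freed of meninges and grown as a mixed culture for 2 weeks, and the microglia were then shaken off. The mock group (2 libraries) was untreated and the LysoPS group (2 libraries) was treated for 4 h. LysoPS is a phospholipid with 1 fatty acid chain and a known ligand of the receptor GPR34, and the comparison asked what it does to these cells. The protocol text speaks of 1 treated replicate, whereas 2 samples carry LysoPS in their own labels, which were followed. Separate cultures or animals were not named, so p-values measure only the spread between these samples, which may be technical.

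The respiratory chain sits in the inner mitochondrial membrane. Complexes I and II pass electrons from NADH and succinate to ubiquinone, complex III passes them to cytochrome c, and complex IV reduces oxygen with them. Complexes I, III and IV pump protons, and complex V, the ATP synthase, uses the gradient to make ATP. Complexes I, III, IV and V are built from subunits of both genomes, whereas complex II is nuclear only. Macrophages and microglia are known to shift between oxidative phosphorylation and glycolysis when they are activated.

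Promoters are shown for 3 nuclear genes that the results turn on: Cycs and Cox5a, which rose together, and Ndufaf4, which fell. Each run is the 250 bases before the RefSeq transcription start in GRCm38.p6, written on the gene's own strand, at chr6:50566570-50566819 (minus strand) for Cycs, chr9:57520982-57521231 (plus) for Cox5a and chr4:24897833-24898082 (plus) for Ndufaf4. Capitals mark GCGCATGCG, the binding word of NRF1 (nuclear respiratory factor 1, an activator of many respiratory genes), read on either strand.
Cycs: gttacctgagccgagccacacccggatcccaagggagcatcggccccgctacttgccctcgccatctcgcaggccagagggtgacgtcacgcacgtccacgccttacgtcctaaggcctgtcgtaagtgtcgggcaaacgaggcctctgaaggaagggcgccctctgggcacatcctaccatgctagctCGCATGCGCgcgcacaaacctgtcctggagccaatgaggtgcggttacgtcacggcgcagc
Cox5a: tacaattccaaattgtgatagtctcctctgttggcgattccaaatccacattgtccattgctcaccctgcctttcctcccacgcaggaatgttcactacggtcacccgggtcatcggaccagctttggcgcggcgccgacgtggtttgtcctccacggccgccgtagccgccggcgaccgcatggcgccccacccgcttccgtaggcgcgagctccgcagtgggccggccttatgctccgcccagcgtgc
Ndufaf4: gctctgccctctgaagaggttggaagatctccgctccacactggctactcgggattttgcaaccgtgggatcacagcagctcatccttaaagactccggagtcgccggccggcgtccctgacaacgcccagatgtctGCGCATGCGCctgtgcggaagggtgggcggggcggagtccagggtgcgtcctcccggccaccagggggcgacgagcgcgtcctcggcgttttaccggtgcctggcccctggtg

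The NRF1 word began at -61 in Cycs, counted from the start site, and at -113 and -112 in Ndufaf4, where the matches on the 2 strands overlap. It was not found in the Cox5a window. All words were searched on both strands. RefSeq promoters were matched for 76 of the 92 nuclear genes, and 8 of these (10.5%) held the word, against 401 of 27025 promoters of the same length (1.48%). The ETS word CCGGAAG, bound by GABP among others, was in 13 (17.1%) against 7.07% of all promoters. TCAAGGTCA, the word of the estrogen-related receptors, was in 1 (1.32% against 0.366%), and AAGATGGCG, the word of YY1, was in 0 (0.592% of all). Of the 11 genes that changed, 9 had a matched promoter. Cycs and Ndufaf4 held the NRF1 word, and these 9 windows held none of the other 3 words. The word is thus present in a gene that rose and in a gene that fell, and its presence in a window is a description of letters only.

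Depth was 30001098 and 41572340 counts for the mock libraries, and 34689045 and 45193959 for those with LysoPS. The cultures were not microglia only. Across all genes 12.8% rose and 12.6% fell. Of 16 gene models of 15 microglia or macrophage markers, 9 rose and 3 fell. Their summed level went from 2970 and 2672 CPM (read count scaled to library size) in mock to 3969 and 3584 in LysoPS. In this sum, 1 Itgam model (ENSMUSG00000108596) stood at 0.03 and 43.3 CPM in mock and at 232 and 353 in LysoPS. Cx3cr1 differed between replicates of a group, at 132 and 13.4 CPM in mock and 176 and 19.5 in LysoPS. The part of read assignment in the sum was not tested. Of 10 astrocyte markers 0 rose and 8 fell, with a summed level of 11460 and 10349 CPM in mock against 5586 and 6347. Fibroblast and mural markers (0 of 10 rose, 3 fell) summed to 15091 and 15215 CPM in mock against 12617 and 12930, those of endothelium (0 of 4 rose, 2 fell) to 336 and 328 against 159 and 184, and those of oligodendrocytes (3 of 6 rose) to 204 and 196 against 239 and 228. No marker of these 5 lists was at 0 in all libraries. DESeq2 called 1 of the 4 endothelial markers higher, and in the other lists it and limma-voom called none in the directions given as 0. In bulk RNA a smaller share of cells of a type and less RNA per cell cannot be told apart, and the part of these shifts in the results below was not tested.

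LysoPS left most respiratory chain transcripts within a narrow band and moved a few. Of the 105 genes, 7 rose and 4 fell (edgeR's quasi-likelihood test, adjusted p under 0.05 over 19057 genes). Across all genes 25.5% changed, 12.8% upward and 12.6% downward, so 11 of 105 is a smaller share than among all genes. The genes that rose were Cox5a, Cycs, Atp5g1, Cox7b, Cyc1, Atp5f1 and Atp5b, all of them subunits or electron carriers of complexes III, IV and V. The genes that fell were the complex I assembly factors Ndufaf4 and Ndufaf7 and the complex IV isoforms Ndufa4l2 and Cox6b2. None of the 36 nuclear complex I subunits, 4 complex II subunits and 13 mitochondrially encoded genes passed in edgeR. At an unadjusted p under 0.05 there were 4 of the 36, all higher (DESeq2 called 1 and limma-voom 0). There was 1 of the 4, higher (DESeq2 called 1, limma-voom 0), and 3 of the 13, of which 1 was higher and 2 lower (DESeq2 called 1 higher and 1 lower, limma-voom 1 higher). Of the 94 genes that did not pass, 84 had a 95% interval of the fold change that lay inside 1.5-fold in both directions. Among all genes tested that did not pass, 6452 of 14203 had such an interval.

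**Figure D1:**
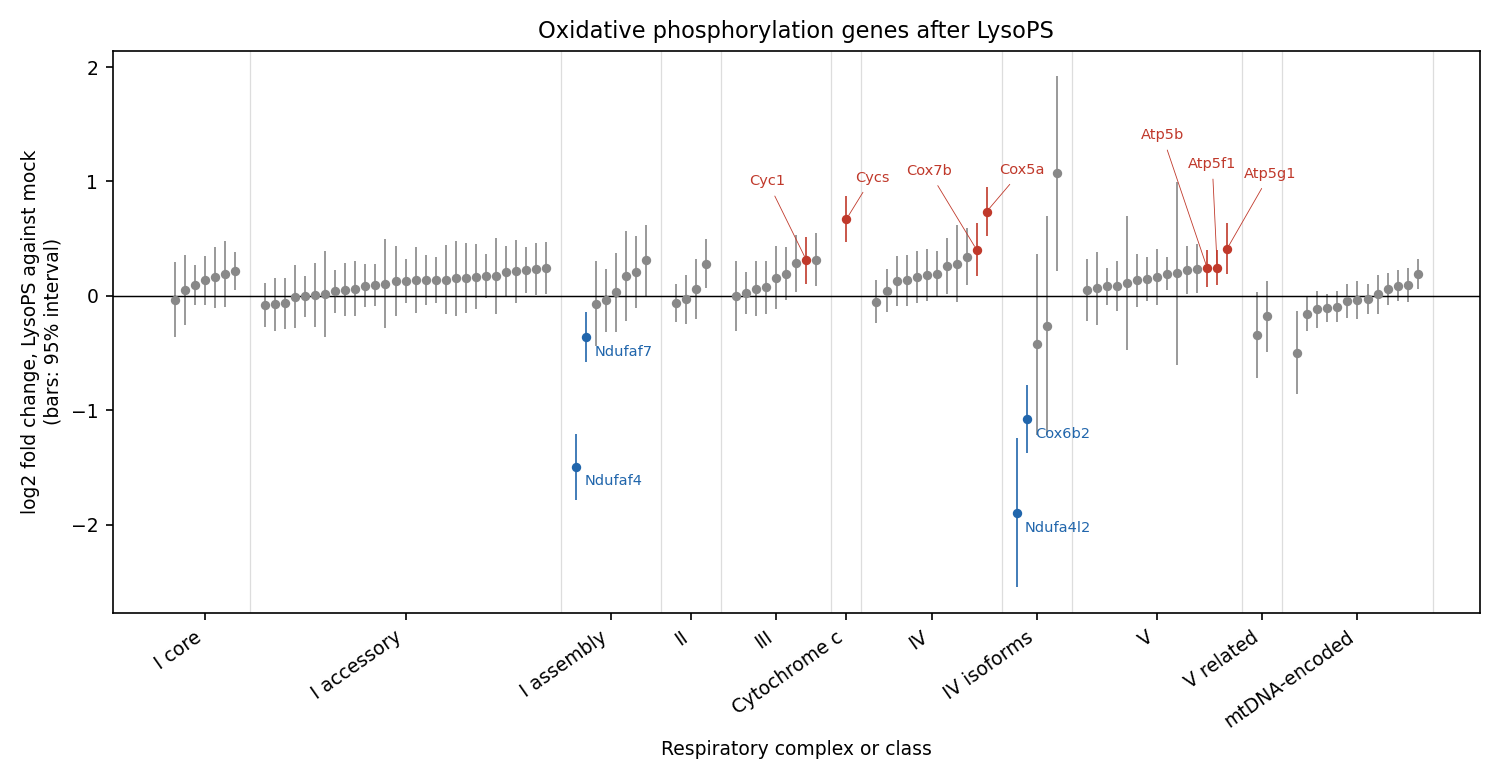
Log2 fold change of LysoPS against mock for the 105 genes, ordered within each respiratory complex or class (x axis), with 95% intervals as bars. Red points passed the test upward (7 genes), blue downward (4 genes) and grey did not pass. Of the 94 grey points 84 have an interval inside 1.5-fold, against 6452 of 14203 among all genes that did not pass.

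Separation of the libraries stood the other way to the background than the upward calls did. Both LysoPS libraries lay above both mock libraries in 46 of the 92 nuclear genes, a larger share than the 32.5% of all genes tested. They lay below them in 7, a smaller share than the 34.5% of all genes. The nuclear genes had a median log2 fold change of 0.14 with TMM scaling, against -0.01 for all genes. In the deposited TPM values the nuclear median was -0.04 and that of all genes -0.18, so the sign turned while the nuclear genes still lay above all genes. Once the trend of each library on transcript length and GC content was removed, the medians were -0.05 for both the nuclear genes and all genes. The mitochondrially encoded genes had a median of -0.04 with TMM scaling, -0.21 in TPM and -0.17 with that trend removed.

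Cytochrome c carries electrons from complex III to complex IV and also triggers apoptosis when released into the cytosol. Cycs (ENSMUSG00000063694, minus strand, chr6:50562563-50566538 in GRCm38) stood at 101 and 91.1 CPM in mock and at 155 and 150 CPM in LysoPS. The groups did not overlap, and each LysoPS library exceeded the higher mock library. The log2 fold change was 0.67 ± 0.08 (SE, edgeR adjusted p = 0.00536), from 96.1 ± 7.03 to 153 ± 3.55 CPM (SD, n = 2 in each group). Near-identical copies share reads with Cycs and were listed apart. The largest, Gm10053, held 14.6% of the Cycs counts and Gm10108 held 7.53%, and their log2 fold changes were 0.60 and 0.67 (adjusted p = 0.0215 and 0.0158). Reads may have been split among these loci, so the level of Cycs is uncertain.

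Cox5a encodes a nuclear subunit of complex IV on the matrix side of the enzyme. It (ENSMUSG00000000088, plus strand, chr9:57521274-57532426) stood at 64.9 and 60.5 CPM in mock and at 109 and 100 CPM in LysoPS. The LysoPS libraries were the higher ones without overlap. Its log2 fold change of 0.74 ± 0.08 (SE, adjusted p = 0.00465) was the largest rise among the genes that passed. Cycs and Cox5a passed under all 15 alternatives, with log2 fold changes from 0.59 to 0.75 for Cycs and from 0.53 to 0.80 for Cox5a. They were also the 2 members that still passed upward when LysoPS replicate 1, mock replicate 1 or mock replicate 2 was left out. In those fits 19.3%, 11.2% and 11.1% of all genes changed.

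The other nuclear subunits of complex IV had smaller values. Cox7b, a small subunit encoded on the X chromosome, stood at 88.4 and 84.5 CPM in mock and 122 and 107 CPM in LysoPS. Its log2 fold change was 0.40 ± 0.09 (SE, adjusted p = 0.0319), but it did not pass with either length correction (0.16 and 0.18), nor without LysoPS replicate 1 (0.30), mock replicate 1 (0.43) or mock replicate 2 (0.37). The remaining 9 of 11 nuclear subunits, isoforms left aside, did not pass. Both LysoPS libraries lay above both mock libraries in 9 of the 11, against 32.5% of all genes. Cox7a2 had a log2 fold change of 0.34 (adjusted p = 0.0600), Cox6b1 0.26 (0.115) and Cox6a1 0.18 (0.200). Cox4i1, the subunit at which ATP is known to act on the enzyme, stood at 141 ± 1.66 CPM in mock and 146 ± 9.53 in LysoPS, with overlapping libraries (0.05, adjusted p = 0.692). The 11 nuclear subunits had a median of 0.19 with all 11 above 0, and of 0.02 with 6 above 0 once the length and GC trend was removed. Cox8a and Cox7c, the 2 with the highest FPKM, gave 0.14 and 0.13 (adjusted p = 0.306 and 0.318).

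Complex IV has isoforms of some subunits that are typical of particular tissues or conditions, and 2 of the 4 genes that fell belong here. Cox6b2, known as the testis isoform of Cox6b1, stood at 11.2 ± 0.228 CPM in mock and at 5.30 ± 0.114 in LysoPS (SD, n = 2), with single libraries at 5.38 and 5.22 in LysoPS and the lower mock library at 11.01. Both LysoPS libraries lay far below both mock libraries, which were close to each other. Its log2 fold change was -1.08 ± 0.12 (SE, adjusted p = 0.00427; ENSMUSG00000051811, minus strand, chr7:4751792-4753094). Its partner isoform Cox6b1 stood higher throughout, at 464 against 48.8 TPM (the deposited level per length) in mock. Cox6a2, a heart and muscle isoform, had 110 counts in all and levels of 0.552 and 0.393 CPM in mock against 0.956 and 1.01 in LysoPS (adjusted p = 0.0740). Cox7a1, also typical of heart and muscle, and Cox4i2, a lung and hypoxia isoform, overlapped between groups (adjusted p = 0.367 and 0.648). The intervals of these 3 reached past 1.5-fold, so changes of that size were not detectable at this depth.

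Ndufa4 was first named as a complex I subunit and is now placed in complex IV, and it has 2 paralogues whose transcripts moved. Ndufa4 itself stood at 52.5 and 52.9 CPM in mock and at 62.6 and 55.5 in LysoPS (log2 fold change 0.16 ± 0.09 SE, adjusted p = 0.232). Ndufa4l2, a hypoxia-inducible paralogue, stood at 9.19 and 6.54 CPM in mock and at 2.45 and 1.78 in LysoPS. That is a log2 fold change of -1.90 ± 0.26 (SE, adjusted p = 0.00759; ENSMUSG00000040280, plus strand, chr10:127514967-127517154), the largest fall in the set. Its annotated span shares 32 bases with Shmt2 on the other strand, a gene with 1520% of its counts that rose (0.70, adjusted p = 0.00538), and reads in the shared bases may not have been told apart. AA467197, the mouse counterpart of NMES1 and not one of the 105, had 42 and 42 counts in mock and 156 and 148 in LysoPS. Its log2 fold change was 1.79 ± 0.28 (SE, adjusted p = 0.0112). One paralogue thus fell and the other rose while the interval of Ndufa4, from -0.06 to 0.39, stayed inside 1.5-fold. Ndufa4l2 and Cox6b2 passed under all 15 alternatives, with log2 values from -2.14 to -1.63 and from -1.32 to -1.05.

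**Figure D2:**
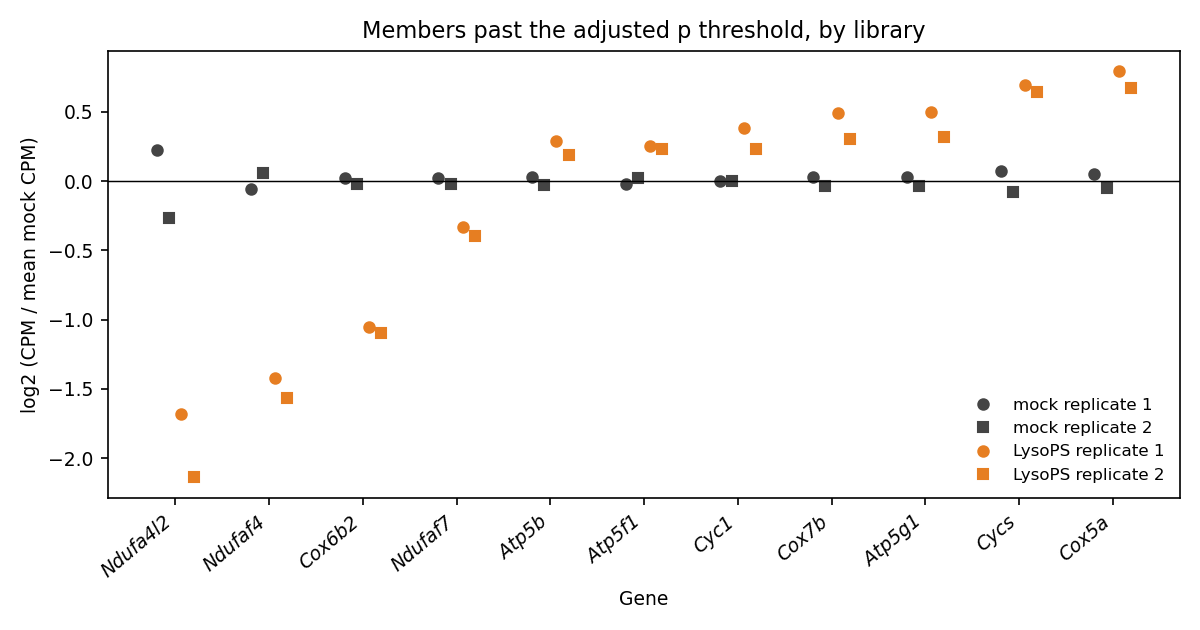
CPM in each library divided by the gene's mean mock CPM, on a log2 scale (y axis), for the 11 genes that passed the test (x axis); grey symbols are mock, orange LysoPS, circles replicate 1 and squares replicate 2. The mock and LysoPS symbols do not overlap for any of the 11, which were picked by the test on these same libraries. Among all genes tested, both LysoPS libraries lay above both mock libraries in 32.5% and below them in 34.5%. LysoPS replicate 1 lies above replicate 2 in each of the 11, against 50.1% of all genes.

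Complex III passes electrons from ubiquinol to cytochrome c. Cyc1 encodes its cytochrome c1, which hands electrons to cytochrome c, and stood at 86.8 and 87.0 CPM in mock and at 114 and 102 in LysoPS. Both LysoPS libraries were higher, with a log2 fold change of 0.31 ± 0.08 (SE, adjusted p = 0.0459). It did not pass with either length correction (0.18 and 0.21), nor without LysoPS replicate 1 (0.23), mock replicate 1 (0.31) or mock replicate 2 (0.31). Uqcrb, named as the ubiquinone-binding protein of the complex, gave 0.32 (adjusted p = 0.0591) and Uqcrh, the hinge protein next to cytochrome c1, gave -0.00 (0.994). The 9 nuclear subunits had a median of 0.16, or -0.02 with the length and GC trend removed. In 5 of the 9 both LysoPS libraries lay above both mock libraries, against 32.5% of all genes, and 8 did not pass. All 9 were higher in LysoPS replicate 1 than in replicate 2.

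The ATP synthase has a catalytic F1 part in the matrix and a membrane part with a ring of c subunits. Atp5b, the catalytic beta subunit and the nuclear gene with the highest level in the set (859 TPM in mock), stood at 695 and 666 CPM in mock and at 832 and 777 in LysoPS. Its rise was small, at 0.24 ± 0.06 on the log2 scale (SE, adjusted p = 0.0466). Atp5f1, a stalk subunit, rose by as much, from 184 ± 3.55 to 219 ± 2.27 CPM (0.25 ± 0.06 SE, adjusted p = 0.0397). It shares 731 bases of its span with Wdr77 on the other strand, which holds 15.1% of its counts and gave 0.16 (adjusted p = 0.220). The alpha subunit Atp5a1 stood at 548 ± 12.1 CPM in mock and 626 ± 15.4 in LysoPS and did not pass (0.19, adjusted p = 0.0645). It did pass upward with DESeq2, with the replicate block, without LysoPS replicate 2 and with either length correction.

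The c ring subunit is encoded by 3 genes that give the same mature protein and differ in their import sequence. Atp5g1 stood at 87.1 and 83.3 CPM in mock and at 120 and 107 in LysoPS, without overlap (0.41 ± 0.09 SE, adjusted p = 0.0268). Atp5g2 gave 0.08 and Atp5g3 0.14 (adjusted p = 0.377 and 0.323), and their direction turned with the length correction. Atp5g1 had the lowest mock level of the 3 at 129 TPM, against 393 for Atp5g2 and 434 for Atp5g3. All 15 nuclear subunits of complex V had a fold change above 0 with TMM scaling, with a median of 0.16 and a range from 0.05 to 0.41, whereas 6 of the 15 were above 0 with the length and GC trend removed (median -0.04). The calls of Atp5b, Atp5f1 and Atp5g1 were lost without LysoPS replicate 1 and without either mock replicate, where the lowest log2 values were 0.19, 0.23 and 0.32. They held with the length and GC trend removed. Atp5s and Atp5sl, counted with complex V by name only, are not subunits and carry the RefSeq names Dmac2l and Dmac2. They gave -0.34 and -0.18 (adjusted p = 0.155 and 0.332).

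Complex I is the entry point for electrons from NADH. For its 36 nuclear subunits the log2 fold changes ran from -0.08 to 0.24, and the 95% interval of all 36 lay inside 1.5-fold. The 7 nuclear core subunits, which form the matrix arm, had a median of 0.14 and the 29 accessory subunits 0.13. Of the 36, 30 were above 0 with TMM scaling and 7 with the length and GC trend removed. Ndufa7 stood at 84.9 and 81.6 CPM in mock and at 83.7 and 82.3 in LysoPS, and Ndufc2 at 107 and 101 against 110 and 104. These 2 accessory subunits had the highest FPKM of complex I, and the groups overlapped in both (log2 fold changes -0.00 and 0.04). The smallest p among the 36, looked up after the values were seen, was that of the core subunit Ndufv2 (0.22, adjusted p = 0.0642).

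Assembly of complex I needs factors that are not part of the finished enzyme. Of the 8 Nduf-family factors 2 fell, against 12.6% of all genes. Ndufaf4 (ENSMUSG00000028261, plus strand, chr4:24898083-24905001), a factor that works with Ndufaf3 early in assembly, stood at 23.5 and 25.5 CPM in mock. It stood at 9.17 and 8.28 CPM in LysoPS. Both LysoPS libraries lay far below both mock libraries, and the log2 fold change was -1.49 ± 0.11 (SE, adjusted p = 0.00166), the smallest adjusted p in the set. The transcript length implied by its counts and FPKM varied 1.63-fold between libraries, so its reads may have gone to other transcript models in some libraries, which was not tested. Its mean TPM, which uses that length, was also lower, at 8.05 against 17.6 in mock. It passed in all 14 alternatives that could test it.

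Ndufaf7, a methyltransferase needed for complex I assembly, stood at 28.5 and 27.7 CPM in mock and at 22.3 and 21.3 in LysoPS. It fell by 0.36 on the log2 scale (SE 0.09, adjusted p = 0.0370), and the call was lost when any 1 library was left out, while the log2 value stayed between -0.42 and -0.32 over the alternatives. The other 6 factors of the Nduf family did not pass, with values from -0.07 for Ndufaf1 to 0.31 for Ndufaf5. The 8 factors had a median of -0.00. Of them, 3 separated upward and 2 downward, against 32.5% and 34.5% of all genes. Their levels were low, with a median of 21.5 TPM in mock against 122 TPM for the nuclear subunits of complex I.

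Complex II, or succinate dehydrogenase, also works in the tricarboxylic acid cycle. Sdha, the flavoprotein, stood at 236 and 228 CPM in mock and at 215 and 228 in LysoPS. Sdhc and Sdhd, the membrane anchors, overlapped between groups as well, with log2 fold changes of -0.03 and 0.06. Sdhb, the iron-sulphur subunit, was the 1 of the 4 whose libraries separated, at 117 and 110 CPM against 145 and 130. Both LysoPS libraries lay above both mock libraries in 32.5% of all genes tested. The log2 fold change of Sdhb, 0.28, did not pass (95% interval 0.07 to 0.49, adjusted p = 0.0666). The adjusted p-values of the other 3 were 0.497, 0.809 and 0.710, and all 4 intervals lay inside 1.5-fold.

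The mitochondrial genome encodes 7 subunits of complex I, 1 of complex III, 3 of complex IV and 2 of complex V, on long transcripts that are cut into separate messages. None of the 13 passed. Both LysoPS libraries lay above both mock libraries in 4 and below them in 5, against 32.5% and 34.5% of all genes tested. Their summed level was 55858 and 54298 CPM in mock and 55947 and 56998 in LysoPS. The counts of near-identical copies, given below, are not in these sums. mt-Nd1 came closest to a rise, at 5240 and 5013 CPM in mock and 5829 and 5851 in LysoPS. Its log2 fold change was 0.19 ± 0.05 (SE, adjusted p = 0.0543), and it was -0.01 with the length and GC trend removed. It passed upward with DESeq2, DESeq2 size factors, limma-voom, no filter, the replicate block and without LysoPS replicate 2.

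mt-Nd6, the only one of the 13 encoded on the light strand, had the largest difference. Its span shares 14 bases with mt-Nd5 on the other strand, which has 2761% of its counts. The strand setting is not given, so reads of the other strand may be included. mt-Nd6 stood at 212 and 173 CPM in mock and at 150 and 122 in LysoPS, without overlap. Its log2 fold change was -0.50 ± 0.14 (SE, adjusted p = 0.0591). It passed downward with DESeq2, no filter, the replicate block, among models whose implied length was stable, without LysoPS replicate 1 and with either length correction. Other complex I messages were slightly lower as values, without a call: mt-Nd3 at -0.16, mt-Nd4l at -0.12, mt-Nd5 and mt-Nd4 at -0.10 and mt-Nd2 at -0.04. Those of complex IV were slightly higher, mt-Co1 at 0.09, mt-Co2 at 0.10 and mt-Co3 at 0.06, and all 3 turned negative with the length and GC trend removed. mt-Cytb gave -0.03, mt-Atp6 -0.04 and mt-Atp8 0.01. With that trend removed, 7 of the 13 passed downward (mt-Nd2, mt-Nd3, mt-Nd4l, mt-Nd6, mt-Cytb, mt-Co2 and mt-Co3). In that fit 30.7% of all genes changed in either direction, and 3095 of 19012 passed downward.

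**Figure D3:**
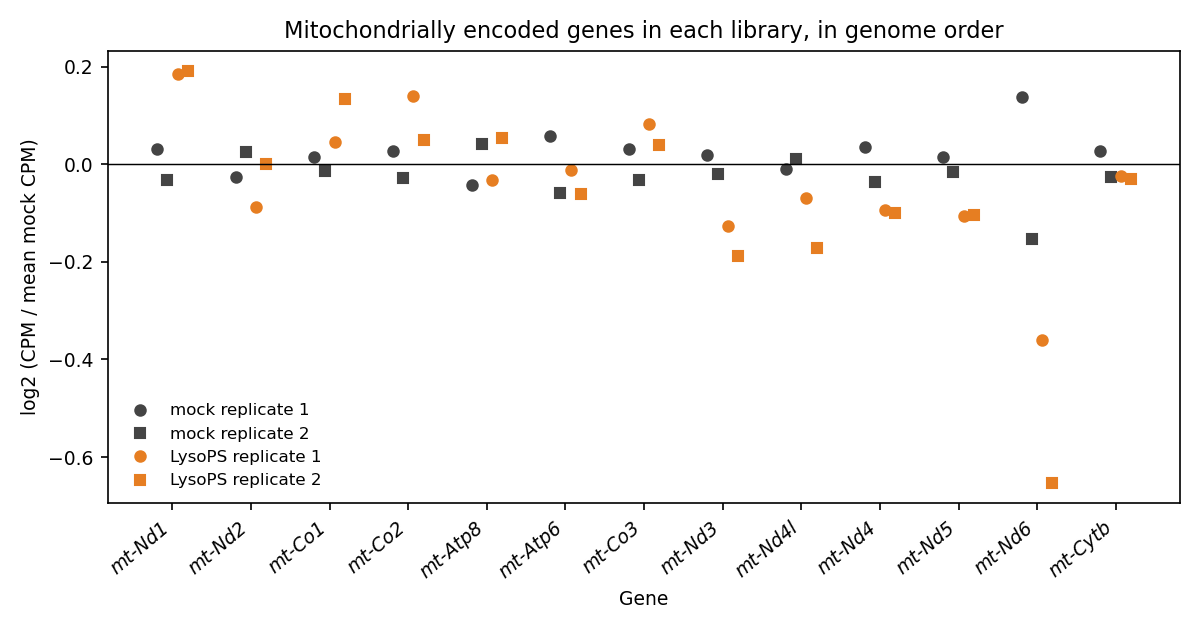
CPM in each library divided by the gene's mean mock CPM, on a log2 scale (y axis), for the 13 mitochondrially encoded genes in genome order (x axis); grey is mock, orange LysoPS, circles replicate 1 and squares replicate 2. mt-Nd6 shows the widest gap, with LysoPS at 150 and 122 CPM against 212 and 173 in mock, and mt-Nd1 lies above mock at 5829 and 5851 CPM.

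A stretch of chromosome 1 holds near-identical copies of part of this genome, and the counts of several genes were shared with them. Gm28437 held 99.5% as many counts as mt-Co3, Gm10222 99.6% as many as mt-Nd4l and Gm28438 97.8% as many as mt-Nd3. Gm10925 held more than mt-Atp6 itself, at 3584, 3496, 3440 and 3455 CPM against 912, 841, 869 and 840 for mt-Atp6. The levels of mt-Co1, mt-Co2, mt-Co3, mt-Nd3, mt-Nd4, mt-Nd4l and mt-Atp6 are therefore uncertain. Summing each gene with its copies changed no call among the 105.

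The levels per length set the 2 genomes apart. In mock the mitochondrial messages ranged from 803 TPM for mt-Nd6 to 28720 TPM for mt-Co1, and nuclear genes reached 859 TPM. The median nuclear subunit of complex I stood at 122 TPM, of complex II at 175, of complex III at 184, of complex IV at 330 and of complex V at 374. Neighbours in this order overlapped in their ranges, from 30.4 to 356 TPM in complex I and from 171 to 723 in complex IV. The ratio of summed nuclear subunit CPM to summed mitochondrial CPM over complexes I, III, IV and V was 0.122 and 0.119 in mock and 0.140 and 0.125 in LysoPS. Counts of the near-identical copies are not in the mitochondrial sums, so the ratios are uncertain. LysoPS replicate 1 gave the highest of the 4 ratios, and LysoPS replicate 2 lay nearer to the mock libraries than to it.

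**Figure D4:**
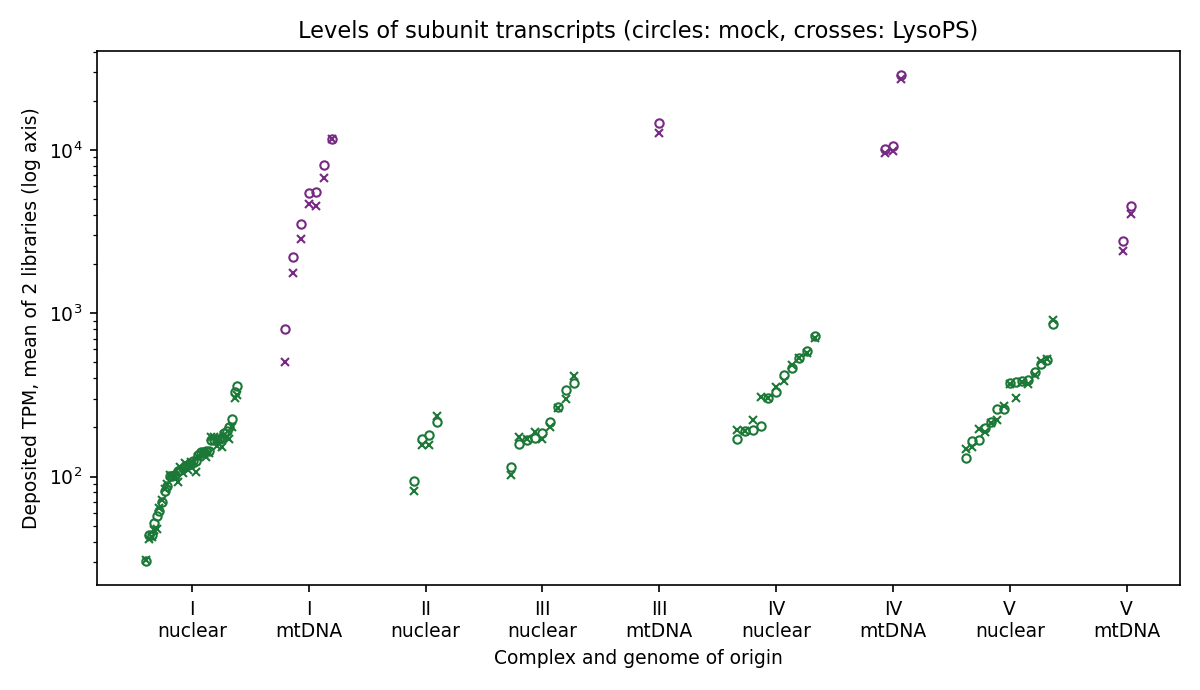
Mean deposited TPM of the 2 libraries of a group (log axis) for each subunit gene, by complex and genome of origin (x axis), with circles for mock and crosses for LysoPS; green is nuclear and purple mitochondrial. Mitochondrial messages lie between 803 and 28720 TPM in mock and nuclear subunits between 30.4 and 859.

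The upward median of the nuclear genes stood beside a trend on transcript length and a gap between replicates, whose part in it was not tested. The nuclear genes are short, with a median transcript of 921 nt against 2681 nt for all genes. With all genes in 10 length bins of equal size, the bin of the shortest had a median log2 fold change of 0.16 and that of the longest -0.06. The 2143 tested genes of at most 921 nt had a median of 0.16, close to the 0.14 of the nuclear genes. With the trend removed, 27 of the 92 nuclear genes had a positive value, where 72 had one before. In that fit 6 of the 105 genes passed upward and 15 downward, where 2749 and 3095 of all 19012 genes did. Cox5a, Cycs, Atp5g1, Atp5f1 and Atp5b passed upward in both fits, Cyc1 and Cox7b in the uncorrected fit only, and Atp5a1 in the corrected fit only (0.19, adjusted p = 0.0218).

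LysoPS replicate 1 stood above LysoPS replicate 2 in 79 of the 92 nuclear genes (85.9%), against 50.1% of all genes, and mock replicate 1 above mock replicate 2 in 69 of them (75.0%), against 53.2%. The gap within LysoPS ran with length across all genes. Its median log2 value, replicate 1 minus replicate 2, was 0.207 in the bin of the shortest genes and -0.150 in that of the longest, and it was 0.152 in the nuclear genes. Without LysoPS replicate 1 the nuclear median was 0.05 and 2 genes passed upward (Cox5a and Cycs). Without LysoPS replicate 2 it was 0.21 and 16 passed upward, in a fit where 27.2% of all genes changed. The part of RNA quality or of library preparation in this gap was not tested.

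**Figure D5:**
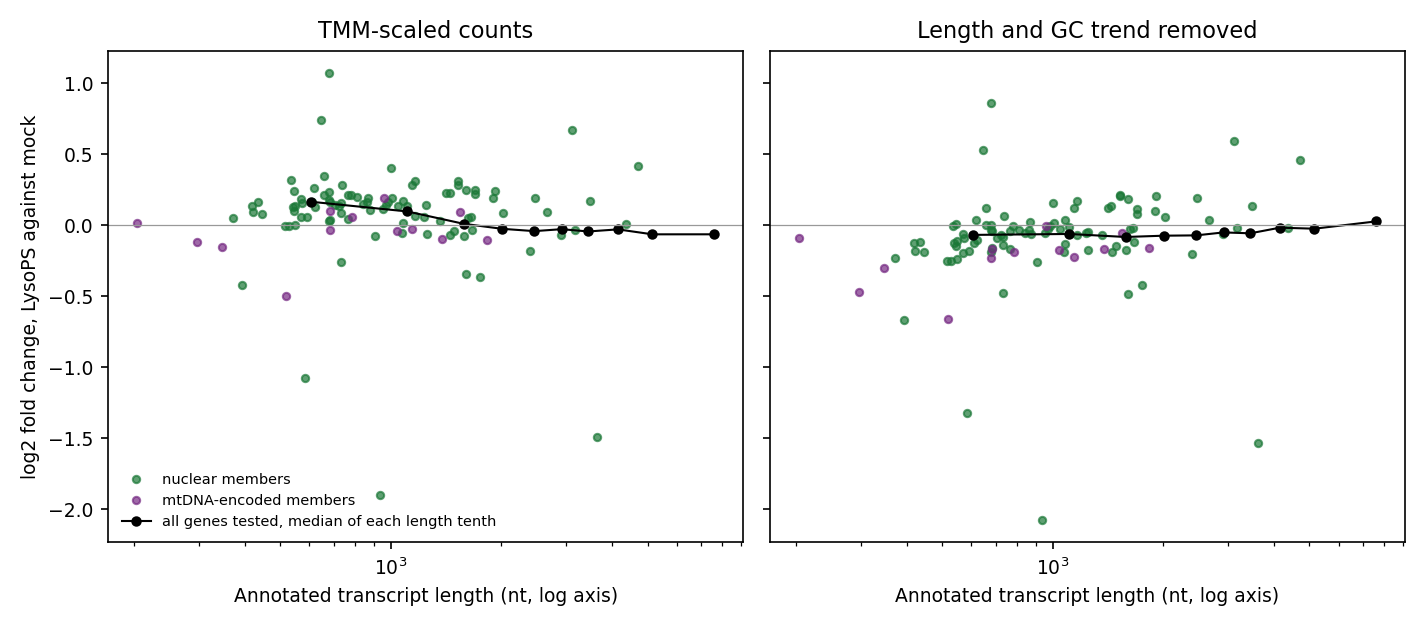
Log2 fold change of LysoPS against mock (y axis) by annotated transcript length (log axis) with TMM-scaled counts (left) and with each library's length and GC trend removed (right); green points are nuclear genes, purple mitochondrial genes, and the black line is the median of all genes in each of 10 length bins. The line starts at 0.16 in the bin of the shortest genes on the left and at -0.07 on the right.

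Genes around the chain that are not among the 105 are read against the same background, 12.8% of all genes higher and 12.6% lower. Of 41 assembly factors outside the Nduf family 3 rose, a smaller share than among all genes, and 0 fell: Coa5 (0.45, adjusted p = 0.0118), Sco2, a copper chaperone of complex IV (0.76, 0.0134), and Coa4 (0.53, 0.0421). Of 13 ubiquinone synthesis genes 3 rose and 1 fell, among them Pdss1, which makes the side chain (0.63, adjusted p = 0.0171), Coq10b (0.46, 0.0280) and Coq8a (-1.38, 0.0219, with an implied length that varied 2.22-fold). Of 10 carriers and channels 4 rose and 0 fell, with Slc25a5, an ADP/ATP carrier, at 276 ± 2.08 CPM in mock and 396 ± 8.24 in LysoPS (0.52, adjusted p = 0.00436). Slc25a10, the dicarboxylate carrier, rose from 50.7 ± 2.65 to 97.3 ± 10.4 CPM (0.94, adjusted p = 0.00426), and Vdac2 gave 0.42 (0.0107). At an unadjusted p under 0.05, 0 of the 41 factors and 1 of the 10 carriers were lower, and DESeq2 and limma-voom called 0 lower in both lists. With mock replicate 1 or mock replicate 2 left out, Coa5, Sco2, Coa4, Pdss1, Coq10b and Vdac2 did not pass; Coq8a did not pass without mock replicate 1, Coa4 without either LysoPS replicate and Coq10b without LysoPS replicate 2.

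In the tricarboxylic acid cycle and its pyruvate entry, 2 of 23 genes rose and 3 fell, where 25.5% of all genes changed. Pdk2 and Pdk4, kinases that switch off pyruvate dehydrogenase, fell by 0.73 and 1.07 on the log2 scale (adjusted p = 0.00399 and 0.00860). Dld, a subunit shared by the pyruvate and alpha-ketoglutarate dehydrogenases, rose (0.34, adjusted p = 0.0200). Of 19 genes of mitochondrial transcription and biogenesis 4 rose and 0 fell, against 12.8% and 12.6% of all genes. Slirp, which stabilises mitochondrial messages, stood at 18.5 and 17.2 CPM in mock and at 30.4 and 30.6 in LysoPS (0.78, adjusted p = 0.00512). The coactivator Pprc1 gave 0.76 (adjusted p = 0.0168) and Esrra, an estrogen-related receptor, 0.52 (0.0254). The factors Nrf1 and Tfam, looked up after the values were seen, gave 0.03 and -0.02 (adjusted p = 0.882 and 0.902). Of 9 modulators tested, AA467197 rose and 1810058I24Rik, a mitochondrial small-protein gene, fell (-0.51, adjusted p = 0.0117). Dld and Esrra did not pass without either mock replicate, Esrra not without LysoPS replicate 1, Pprc1 not without mock replicate 2 and 1810058I24Rik not without mock replicate 1. Pdk2, Pdk4, Slirp, Slc25a5, Slc25a10 and AA467197 passed with each library left out. In the biogenesis list 0 genes were lower at an unadjusted p under 0.05 or by DESeq2 or limma-voom.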

How the data were processed

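RNA was measured in 4 libraries (2 mock, 2 LysoPS). The submitters' processing notes name HISAT2 and StringTie beside Trimmomatic 0.36 and FastQC 0.11.2, with GRCm38 as the build. Not given in the sources used here are the counting program, its strand setting and the annotation release. The deposited table holds counts, TPM and FPKM for each gene model, per the file headers. Counts were tested with edgeR 4.0.16 in R 4.3.3: filterByExpr (minimum count 10), TMM scaling, quasi-likelihood F test with 2 residual degrees of freedom, two-sided p-values adjusted by Benjamini-Hochberg over 19057 genes, threshold 0.05. The fit was tested on simulated counts that held no trend on transcript length, so that test does not bear on the trend seen here. CPM use TMM-scaled library sizes. Deposited TPM served for levels, and deposited FPKM for ranking levels and for the transcript length that it implies with the counts. Lengths and GC content came from GENCODE M21, in which 88 of the 105 genes have the same coordinates. Near-identical copies were transcripts alike at 95% identity over 80% of the shorter one. Promoters came from RefSeq.

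The genes, lists, tests and alternatives were chosen with earlier results of these data known. Named were all mitochondrially encoded genes, the Sdh genes, Cyc1, Cycs, up to 3 genes with the smallest p among those that passed in each direction and the 2 with the highest FPKM in complexes I, III, IV and V, up to 3 assembly factors that passed, isoforms with their main isoform, AA467197, and up to 3 that passed from each other list. The few others are marked in the text as looked up afterwards, apart from copies, overlapping genes and uncalled members given beside a named gene. Alternatives were DESeq2 1.42.0 and its size factors, limma-voom (limma 3.58.1), other filters, a replicate block, each library left out, removal of length and GC trends, and mitochondrial copies summed or left out.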

Additional observations from a re-analysis of the deposited data

How the results depend on the processing

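Across 15 alternatives, Cox5a, Cycs, Cox6b2 and Ndufa4l2 kept their calls, Ndufaf4 kept its call in the 14 that could test it, and the other 6 of the 11 genes lost theirs in some. The cause was not tested for any shift below. Over all genes, 4854 calls became 2165 to 5356 when 1 library was left out. Among the 105 genes, 7 higher calls became 13 by DESeq2, 15 with the replicate block, and 2 to 16 with 1 library left out. The labels do not say whether replicate numbers pair the samples. The replicate 1 minus replicate 2 differences of the 2 groups correlated at 0.0775 across genes, which cannot decide it with 2 libraries a group. All genes gave 5433 calls with the block. The 4 lower calls among the 105 became 15 with the length and GC trend removed and 14 with the trend on implied length removed. Over all genes, 2407 lower calls of 19057 became 3095 of 19012 and 3149 of 18772. The median log2 value of the nuclear genes, 0.14, was -0.055 and -0.034 in these 2 fits and 0.045 to 0.21 with 1 library left out. The mitochondrial median, -0.04, was -0.17 and -0.14. The implied-length fit and the restriction to models with stable read assignment were chosen after seeing the data.

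Some uncalled values near 0 changed sign. With the length and GC trend removed (in brackets with implied lengths), they became, on the log2 scale, -0.16 (-0.14) for Ndufc2, -0.0567 (-0.0345) for Sdhd, -0.0562 (-0.0330) for mt-Co1, -0.17 (-0.13) for mt-Co2, -0.19 (-0.16) for mt-Co3, -0.0592 (-0.0340) for Cox6a1, -0.13 (-0.10) for Ndufa4, -0.11 (-0.0855) for Cox8a, -0.12 (-0.0977) for Cox7c, -0.17 (-0.15) for Cox4i1, -0.0901 (-0.0622) for mt-Atp8, -0.0676 (-0.0426) for Atp5g3 and -0.14 (-0.11) for Atp5g2. With annotated lengths mt-Nd1 was -0.00896 and Uqcrb -0.00285. By DESeq2, and by edgeR with its size factors, Ndufa7 was 0.00984 and 0.00967 and Uqcrh 0.0131 and 0.0133, and with no filter Uqcrh was 0.00114. mt-Atp8 was -0.00354 with stable read assignment and -0.00767 with the stricter filter.

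With 1 library left out, the lowest and highest values of those that changed sign were -0.00665 and 0.0841 for Ndufc2, -0.0336 and 0.0240 for Ndufa7, -0.0577 and 0.17 for Sdhd, -0.10 and 0.0403 for Sdhc, -0.17 and 0.15 for Uqcrh, -0.47 and 0.0332 for Cox4i2, -0.0265 and 0.11 for Cox4i1, -0.0927 and 0.0236 for mt-Atp6 and -0.0299 and 0.0551 for mt-Atp8.

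With 2 libraries a group, small changes are hard to call. The intervals of Cox6a2, Cox7a1 and Cox4i2, with 110, 242 and 78 counts, reached past 1.5-fold. That of Atp5j, with 10852 counts, did so as well (-0.601 to 0.998 on the log2 scale). Reads of overlapping genes on opposite strands may be shared, since the strand setting is unknown. PCR duplicates cannot be seen in gene counts.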
